A study of Mus musculus with 14 samples.

Results

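The contacts described here are those of 3 baits at the mouse Stag1 locus in neural stem cells (NSC), taken from 5 of the 14 UMI-4C libraries of the series. The members were chosen by their labels, as every NSC library of Nanog bait 1 (3 libraries), Nanog bait 2 (1 library) and CTCF bait (1 library). The study compared DNA contacts at this locus between ES cells and NSC, as part of work on the transcripts of Stag1. The NSC were derived from embryonic stem (ES) cells, were grown with EGF and FGF and were untreated. No genotype, strain or clone was stated in the labels used here, and neither was what the words Nanog and CTCF in the bait names stand for. The assay reads DNA contacts and no RNA, so the labelled cell type could not be checked against marker genes.

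In UMI-4C, chromatin is fixed, cut and ligated, so that fragments that lay close together in the nucleus are joined, and the fragments joined to a chosen site, the bait, are sequenced. Ligation molecules are told apart by a unique molecular identifier (UMI), here the sheared end. Stag1 encodes a subunit of cohesin, the ring-shaped complex that extrudes DNA loops and is halted at sites bound by CTCF. Contacts fall steeply with distance from any bait in all mammalian cells, so baits at different positions are best compared both at the same position and at the same distance.

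The baits are all on chromosome 9 in build GRCm38. Of these, Nanog bait 1 (bait 1) is the fragment end at position 100619989, in an intron of Stag1 (ENSMUSG00000037286.15, chr9:100597798-100959375, plus strand), 22.2 kb after the first annotated start. Nanog bait 2 (bait 2) at 100641698 is in an intron too, 1.75 kb before the next annotated start at 100643448. The CTCF bait at 100455377 lies between genes, 2.34 kb from the 3′ end of Il20rb. Baits 1 and 2 are 21.7 kb apart, and the CTCF bait is 164.6 kb from bait 1 and 186.3 kb from bait 2. In each library 100% of the chromosome 9 ends lay at a GATC site, against 0.379% to 0.464% when positions were moved by 100 bp. The reference sequence around each bait is shown because it holds the site from which all contacts were read. The other sequences surround a site with the most UMIs among those at least 100 kb from each bait. For bait 2 it is 1 of 2 sites tied at 12 UMIs, and for the CTCF bait 1 of 3 tied at 10. Each run is 80 bases of the plus strand from the RefSeq genome, with the GATC sites in capitals.
Nanog bait 1 (chr9:100619949-100620028): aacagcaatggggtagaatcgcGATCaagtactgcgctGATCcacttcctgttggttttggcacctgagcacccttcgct
Nanog bait 2 (chr9:100641659-100641738): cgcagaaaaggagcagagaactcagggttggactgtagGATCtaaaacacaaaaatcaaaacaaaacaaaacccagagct
CTCF bait (chr9:100455338-100455417): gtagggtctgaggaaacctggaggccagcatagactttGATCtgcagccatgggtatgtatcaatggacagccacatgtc
Far site of bait 1 (chr9:100465838-100465917): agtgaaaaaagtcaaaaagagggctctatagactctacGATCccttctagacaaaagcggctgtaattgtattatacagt
Far site of bait 2 (chr9:100532415-100532494): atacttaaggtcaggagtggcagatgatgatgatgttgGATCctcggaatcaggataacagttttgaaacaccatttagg
Far site of the CTCF bait (chr9:101149605-101149684): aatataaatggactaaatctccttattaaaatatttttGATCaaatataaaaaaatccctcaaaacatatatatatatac
The run around bait 1 holds 2 GATC sites, whereas the other runs shown hold 1 each.

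The libraries held between 19410 and 24687 UMIs. Of the bait 1 libraries, replicates 1 and 3 shared 83.8% of their ends on other chromosomes, where nearly every end carries 1 UMI, and their window counts differed by less than sampling noise, with a chi-square of 0.116 per degree of freedom. They were therefore averaged and counted as 1 sample, which left 2 samples for bait 1 and 1 sample for each other bait. Every other pair of NSC libraries shared at most 0.461% of these ends. Each NSC library also shared ends with an ESC library of its own bait, from 3.81% of the smaller library for bait 1 replicate 2 to 12.9% for bait 2, and the part of this in the results was not tested. The rule by which UMIs were collapsed is not given in the sources used here, and the highest count of any end was 44 to 66 in the 5 libraries. Whether high counts near a bait are bounded, and so the shares of near contacts, was not tested, and values with each fragment end counted once are given where they differ. No label says that the bait 1 samples came from separate cultures, so their spread may be technical. Ends within 10 kb of any bait were left out. In the region common to the baits, chr9:99640001-101440000, the libraries then held 5466, 3747 and 5476 UMIs (bait 1, replicates 1, 2 and 3), 5186 UMIs (bait 2) and 8011 UMIs (CTCF bait). At these depths 3 UMIs amount to between 0.0374% and 0.0801% of the region. Values of bait 1 are given as mean ± SD of its 2 samples. Values of the other baits are given with their 95% Wilson interval, which covers counting error only.

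The CTCF bait kept more of its contacts on its own chromosome than the baits in Stag1 did. Chromosome 9 took 60.2% and 56.5% of the UMIs in the bait 1 samples (58.3% ± 2.67, SD, n = 2), 61.6% (60.9 to 62.3) from bait 2 and 74.5% (73.9 to 75.1) from the CTCF bait. The value of bait 2 lay 3.25 percentage points above the mean of bait 1, little more than the spread between the bait 1 samples. That of the CTCF bait lay 16.2 points above bait 1 and 12.9 points above bait 2. The excess was in the range from 10 kb to 1 Mb, which held 23.8% ± 2.47 of the UMIs from bait 1, 29.4% (28.8 to 30.1) from bait 2 and 41.8% (41.1 to 42.5) from the CTCF bait. At 1 to 10 Mb the shares were closer, with 16.0% ± 0.376, 15.4% (14.9 to 16.0) and 18.9% (18.4 to 19.5). Beyond 10 Mb the order turned, with 18.5% ± 0.177, 16.7% (16.2 to 17.3) and 13.8% (13.3 to 14.3). These shares were not tested, since bait 2 and the CTCF bait have 1 library each and their own spread was not measured.

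Within 750 kb, contacts of the CTCF bait were spread farther than those of the baits in Stag1. Of the UMIs between 10 and 750 kb from the own bait, the share at 400 to 750 kb was 23.0% and 24.3% in the bait 1 samples (23.6% ± 0.887, SD, n = 2), 21.4% (20.2 to 22.6) from bait 2 and 42.6% (41.4 to 43.7) from the CTCF bait. The share within 100 kb was 38.5% ± 0.687, 32.6% (31.3 to 34.0) and 29.6% (28.6 to 30.7). The stretches left out around the other baits take different amounts of each distance class, so densities per 10 kb counted are given as well. By density, the level within 100 kb was 2.40% ± 0.0430 per 10 kb from bait 1, 2.04% from bait 2 and 1.65% from the CTCF bait. At 100 to 200 kb the order was different, with bait 2 at 1.22% per 10 kb, bait 1 at 0.914% ± 0.00592 and the CTCF bait at 0.669%. At 400 to 750 kb the density of the CTCF bait was 0.608% per 10 kb, above its own 0.428% at 200 to 400 kb. By contrast, the density of baits 1 and 2 fell between these classes, from 0.536% ± 0.00232 to 0.338% ± 0.0127 and from 0.603% to 0.305%. The share of bait 2 within 100 kb differed from that of bait 1 by −5.84 points, and by −1.38 points with each fragment end counted once. With only the own bait left out, the share of the CTCF bait differed from bait 1 by −14.0 points in place of −8.84, and from bait 2 by −8.59 points.

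**Figure D1:**
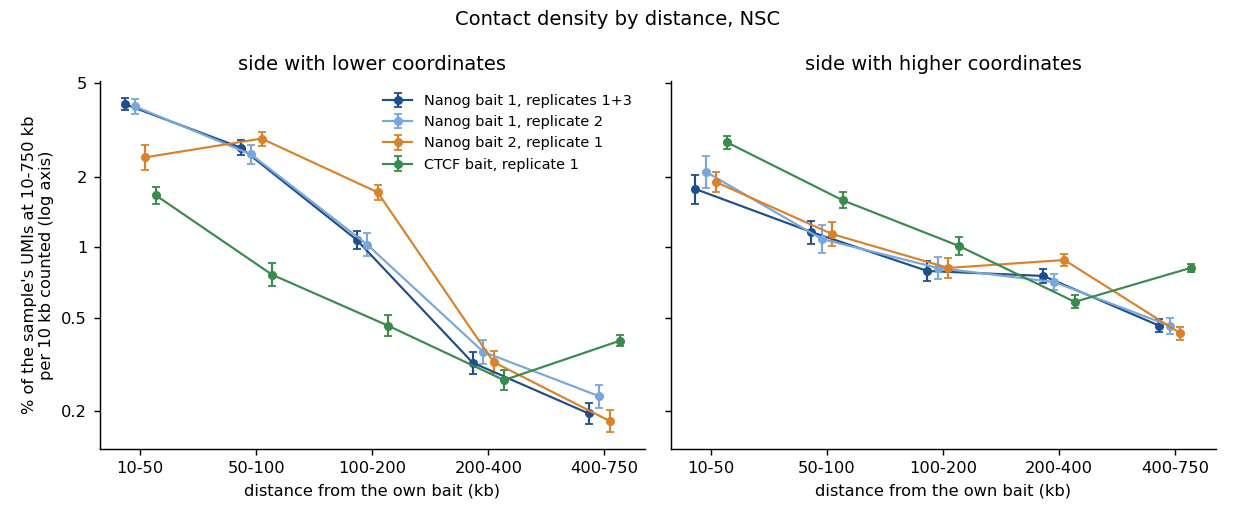
Contact density (% of each sample's UMIs at 10 to 750 kb, per 10 kb counted, log axis) by distance from the own bait in kb, for the side with lower coordinates (left) and higher coordinates (right). Points are samples and bars are 95% Wilson intervals. The CTCF bait lies lowest on the lower side up to 400 kb and highest on both sides at 400 to 750 kb.

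The baits also differed in the side they contacted. At 10 to 50 kb the side with lower coordinates, which leads towards the first Stag1 start from baits 1 and 2, had a density of 4.03% ± 0.0670 per 10 kb from bait 1 against 1.93% ± 0.231 on the other side. From bait 2 these densities were 2.42% and 1.89%. From the CTCF bait they were 1.66% and 2.81%, so that the CTCF bait favoured the side towards Stag1. The stretch left out around bait 2 takes nearer parts of this class from the higher side of bait 1. The stretch left out around bait 1 does so on the lower side of bait 2. For baits 1 and 2 these densities are thus not a like comparison, either between sides or between the baits. At 50 to 100 kb the lower side took 69.6% and 69.7% of the UMIs in the bait 1 samples and 71.9% (69.0 to 74.6) from bait 2, but 32.5% (29.5 to 35.7) from the CTCF bait. Hence baits 1 and 2 were close at this distance and the CTCF bait was turned the other way. Farther out the 3 baits lay closer together by UMIs. At 200 to 750 kb, where no end was left out for any bait, the lower side took 29.8% and 33.4% from bait 1 (31.6% ± 2.58, SD, n = 2), 28.2% (26.3 to 30.1) from bait 2 and 32.5% (31.1 to 33.9) from the CTCF bait. The CTCF bait differed from bait 1 there by 0.896 percentage points, within the spread between the bait 1 samples, whereas the intervals of bait 2 and the CTCF bait did not overlap. With each fragment end counted once, bait 2 and the CTCF bait lay farther apart at this distance, as given in the last section. Over all of 10 to 750 kb the lower side took 51.7% ± 0.262, 45.9% (44.5 to 47.3) and 34.5% (33.4 to 35.6). The stretches left out for baits 1 and 2 lie on opposite sides, so their order here is not a like comparison, and with only the own bait left out bait 2 exceeded bait 1 by 3.48 points. With each fragment end counted once, whatever its UMIs, the CTCF bait differed from bait 1 by −1.87 points in place of −17.2 and from bait 2 by 2.06 in place of −11.4.

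Along the region, with both sides of a bait pooled, the 3 baits shared the stretches with few and many contacts relative to distance. For this comparison an expected number of UMIs was computed from each sample's own density in each distance class, with both sides pooled, and contacts are given as observed over expected. Because the sides are pooled, these ratios also carry the side shares given above and are not a measurement apart from them. The 581.3 kb between Sox14, a transcription factor gene, and the CTCF bait were the poorest of the 6 stretches of the region from every bait, at 0.635 ± 0.0454 from bait 1, 0.591 from bait 2 and 0.622 from the CTCF bait. This stretch lies wholly on the lower side of every bait. From bait 1, density at 200 to 400 kb was 0.340% ± 0.0260 per 10 kb on that side, against 0.536% ± 0.00232 pooled. From bait 2 it was 0.324% against 0.603%, and from the CTCF bait 0.271% against 0.428%. The low ratios thus in part restate the side shares. The stretch between the CTCF bait and Stag1 holds Il20rb, Nck1 and Slc35g2. It was above expectation from each bait, at 1.25 ± 0.0396, 1.38 and 1.34. The stretch from the end of Stag1 to the end of Ppp2r3a, with Pccb and Msl2, lies wholly on the higher side of every bait. It was the richest of the 6 from every bait, at 1.61 ± 0.108, 1.70 and 1.38. From the CTCF bait it lay little above the stretch before Stag1 (1.34) and Stag1 itself (1.32), and that order was not tested. The CTCF bait was the only one for which the body of Stag1 was above expectation. There the ratio was 0.910 and 0.947 in the bait 1 samples and 0.875 from bait 2, but 1.32 from the CTCF bait. Stag1 lies wholly on the higher side of the CTCF bait. At 200 to 400 kb the density from the CTCF bait was 0.585% per 10 kb on that side, against 0.428% with both sides pooled. The ratio of 1.32 thus in part restates the side share.

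By plain share of the region's UMIs, Stag1 held 31.2% ± 0.400 (SD, n = 2) from bait 1, 32.9% (31.6 to 34.2) from bait 2 and 19.4% (18.5 to 20.3) from the CTCF bait. Per 10 kb of the gene this was 0.970% ± 0.0124, 1.02% and 0.602%. The share of Stag1 from the CTCF bait differed by −11.8 points from bait 1 and −13.5 from bait 2, and with each fragment end counted once by −6.17 and −8.53. With ends within 20 kb of any bait left out, bait 2 differed from bait 1 by 3.31 points in place of 1.73, and the CTCF bait by −7.27. Between the first and the next annotated start, where both Stag1 baits lie, the density was 4.97% ± 0.190 per 10 kb from bait 1, 2.64% from bait 2 and 0.925% from the CTCF bait. Of the 45.6 kb of this stretch only 13.9 kb was counted, most of it nearer to bait 1 than to bait 2, so this is not a like comparison. After the next start the gene was divided into 3 stretches of 105.3 kb. In the stretch nearest the start the density was 1.07% ± 0.00652, 1.34% and 0.590% per 10 kb, in the middle stretch 0.624% ± 0.00402, 0.718% and 0.484%, and in the last stretch 0.694% ± 0.0110, 0.824% and 0.690%. Thus the CTCF bait fell short of bait 1 by less along the gene, and in the last stretch by less than the spread between the bait 1 samples. Relative to distance, with both sides pooled, the stretch nearest the start gave 0.630 ± 0.0202 from bait 1, 0.728 from bait 2 and 1.48 from the CTCF bait. From bait 1 the density at 50 to 100 kb was 1.12% ± 0.0547 per 10 kb on the side of this stretch, against 1.85% ± 0.0880 with both sides pooled. For the CTCF bait the stretch is on the favoured side. The contrast is thus not a measurement apart from the side shares.

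**Figure D2:**
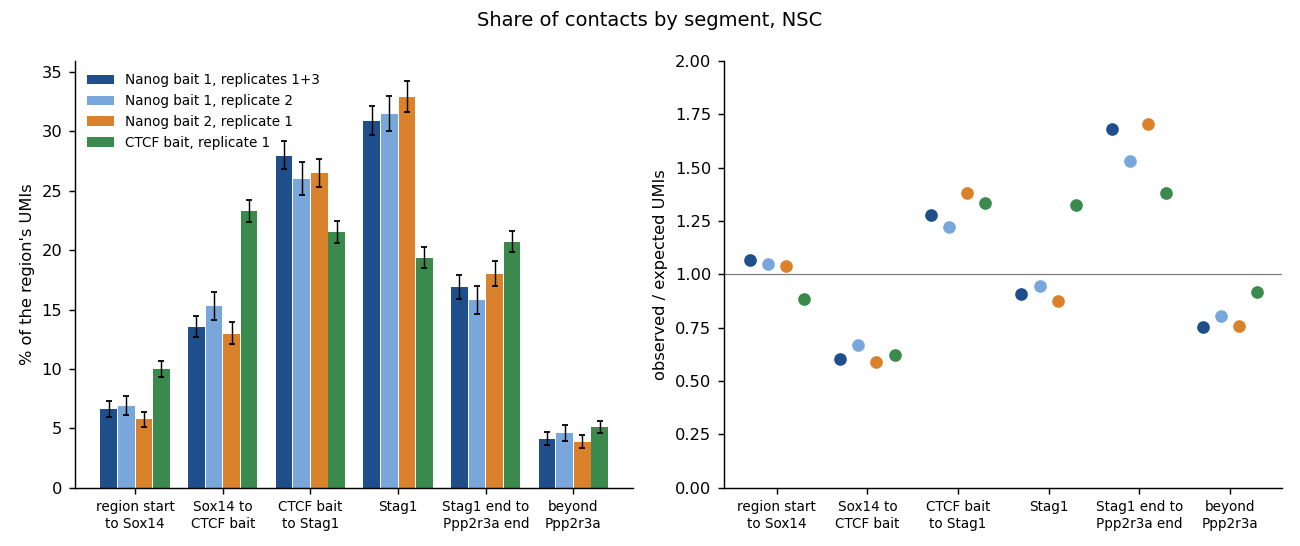
Left, share of the region's UMIs (%) in 6 stretches of the region, with bars starting at 0 and 95% Wilson intervals. Right, observed over expected UMIs in the same stretches, with 1 marking the level expected at that distance from both sides pooled. Each colour is a sample. The CTCF bait exceeds 1 in Stag1, at 1.32, where the other samples lie between 0.875 and 0.947.

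The genes around Stag1 are given by density near the baits and relative to distance farther out. Il20rb, which encodes a subunit of an interleukin receptor and lies beside the CTCF bait, held 1.23% ± 0.0718 of the region's UMIs per 10 kb from bait 1, 1.34% from bait 2 and 3.08% from the CTCF bait. Slc35g2, a solute carrier gene between Nck1 and Stag1, held 2.71% ± 0.0596, 2.49% and 0.991% per 10 kb. Nck1, which encodes an adaptor protein of receptor signalling, held 1.46% ± 0.140, 1.80% and 1.52% per 10 kb, so that the CTCF bait and bait 1 differed by less than the spread between the bait 1 samples. By density, Pccb and Ppp2r3a were highest from the CTCF bait, which is the farthest from them, with 0.719% ± 0.0246, 0.868% and 0.963% per 10 kb for Pccb and 0.462% ± 0.00229, 0.472% and 0.649% for Ppp2r3a. This order rests on the counts per end. The share of the whole stretch from the end of Stag1 to the end of Ppp2r3a exceeded that of bait 1 by 4.39 points and that of bait 2 by 2.71 from the CTCF bait, and with each fragment end counted once differed by 0.219 and −1.11. Relative to distance, Pccb, which encodes a subunit of the mitochondrial enzyme propionyl-CoA carboxylase, was above expectation from every bait, at 1.67 and 1.59 in the bait 1 samples, 1.55 from bait 2 and 1.74 from the CTCF bait. Msl2, a gene of a histone acetyltransferase complex, gave 1.71 and 1.56, 2.04 and 0.946. So Msl2 was below 1 from the CTCF bait and above 1 in the other samples. By density the CTCF bait lay between the others, with 0.507% ± 0.0159, 0.578% and 0.525% per 10 kb for Msl2. From baits 1 and 2, but not from the CTCF bait, Msl2 lies near the inner edge of a distance class. The contrast in its ratio thus rests in part on the class edge. Ppp2r3a, which encodes a regulatory subunit of a protein phosphatase, gave ratios of 1.53 and 1.45, 1.66 and 1.38. At the far end of the region, Cldn18, a tight junction gene, gave 1.19 and 1.13, 1.32 and 1.11, whereas Dzip1l, a gene of the ciliary base, gave 0.665 and 0.849, 0.557 and 0.479. The body of Sox14 is 2.1 kb long and held 3 and 1 UMIs in the bait 1 samples, 4 from bait 2 and 10 from the CTCF bait, which is too few to compare.

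Contacts were then tested in 20 kb windows with the quasi-likelihood test of edgeR over 89 windows. The fit had 1 residual degree of freedom, and the single libraries of bait 2 and the CTCF bait were assumed to vary as the bait 1 samples do, so that bait 2 and the CTCF bait are compared as 1 library against 1. The p-values thus rest on how closely the 2 bait 1 samples lay together, and in many windows these differed by less than counting error, with a fitted quasi-dispersion as low as 0.0641. Every SE is therefore given with the spread held no smaller than counting error, and calls were counted in that way too, as an alternative chosen after seeing the data. At the same position, with shares of the region's UMIs compared, bait 2 differed from bait 1 at an adjusted p below 0.05 in 2 windows (2.25% of those tested), both lower. In windows of 40 kb it differed in 7 of 45, of which 5 were higher and 2 lower, so the direction of these calls rests on the window size. The CTCF bait differed from bait 1 in 21 windows (23.6%), of which 12 (13.5%) were higher and 9 (10.1%) lower. It differed from bait 2 in 24 windows (27.0%), of which 11 (12.4%) were higher and 13 (14.6%) lower. With the spread no smaller than counting error the 3 counts were 0, 4 (1 higher, 3 lower) and 0, with 3, 22 and 26 at an unadjusted p below 0.05. The splits rest on the window size and the scale. In windows of 40 kb the CTCF bait was higher than bait 1 in 13 and lower in 7, and higher than bait 2 in 15 and lower in 8, of 45. With all UMIs as library size, so that the higher share of the CTCF bait on chromosome 9 counts, it was higher than bait 1 in 61 windows and lower in 2, and higher than bait 2 in 38 and lower in 1. The median log2 difference over all windows then was 1.09 and 0.85, against 0.29 and 0.35 with the region's UMIs. DESeq2 called 0, 2 (both lower) and 0 windows in the 3 comparisons, with 0, 5 and 3 at an unadjusted p below 0.05. With each fragment end counted once, edgeR called 0, 3 (all lower) and 9 (5 higher, 4 lower) windows, with 4, 20 and 23 at an unadjusted p below 0.05. Without bait 1 replicate 3 the count against bait 2 was 15 in place of 24. Without bait 1 replicate 2 no bait has a replicate in NSC, and with the spread taken from the other samples of the series bait 2 differed from bait 1 in 1 window in place of 2.

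Several of the windows called at the same position lay around the baits. In chr9:100600001-100620000, in Stag1 between its first start and bait 1, the share was 4.44% and 4.48% in the bait 1 samples, 1.95% (1.61 to 2.36) from bait 2 and 0.886% (0.703 to 1.12) from the CTCF bait. The baits were thus apart in this window, of which 9988 bp was counted, and with only the own bait left out bait 2 was not below bait 1 there (log2 difference 0.15). The log2 difference was −1.19 (SE 0.150, edgeR adjusted p = 0.0247) for bait 2 over bait 1 and −2.33 (SE 0.158, adjusted p = 0.00345) for the CTCF bait over bait 1. In the window before it, chr9:100580001-100600000, which holds the first Stag1 start, the shares were 7.64% and 7.77%, 4.57% (4.03 to 5.17) and 1.81% (1.54 to 2.13). The log2 differences were −0.75 (SE 0.106, edgeR adjusted p = 0.0418) and −2.09 (SE 0.116, adjusted p = 0.00345). With the spread no smaller than counting error, the edgeR adjusted p in both windows was 0.356 for bait 2 over bait 1 and 0.0460 for the CTCF bait over bait 1. Thus by share the first start was contacted most from bait 1, 22.2 kb away, and least from the CTCF bait, while the call between baits 1 and 2 rests on the small spread of the bait 1 samples. On the other side, chr9:100460001-100480000 in Il20rb held 1.69% and 1.73%, 2.04% (1.69 to 2.47) and 4.96% (4.50 to 5.45), with a log2 difference of 1.54 (SE 0.130, edgeR adjusted p = 0.00354) for the CTCF bait over bait 1. That difference turned with ends counted once, to −0.31.

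Away from the baits, a few windows were higher from the CTCF bait at the same position. In chr9:99840001-99860000, the window before that with Sox14, the shares were 0.749% and 0.827% in the bait 1 samples, 0.521% (0.358 to 0.756) from bait 2 and 1.52% (1.28 to 1.82) from the CTCF bait. The log2 difference was 0.96 (SE 0.210, edgeR adjusted p = 0.0246) over bait 1 and 1.54 (SE 0.277, adjusted p = 0.0200) over bait 2. In chr9:101300001-101320000, beyond Ppp2r3a, the shares were 0.347% and 0.374%, 0.347% (0.220 to 0.548) and 0.836% (0.659 to 1.06), and the log2 differences were 1.22 (SE 0.296, edgeR adjusted p = 0.0447) and 1.26 (SE 0.355, adjusted p = 0.0486). Neither window was called with the spread no smaller than counting error, with edgeR adjusted p of 0.146 and 0.130 in the first and 0.151 and 0.159 in the other. When ends were counted once, no window was called higher from the CTCF bait than from bait 1, and of these windows only the first was still called over bait 2. In chr9:101300001-101320000 the CTCF bait was higher at matched distance too, with an observed over expected ratio of 0.574 and 0.588, 0.612 and 1.42. The calls were lost with ends counted once and with each distance class divided further (log2 difference 0.91 over bait 1 and 0.68 over bait 2). Over bait 2 the call was also lost with the spread no smaller than counting error.

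**Figure D3:**
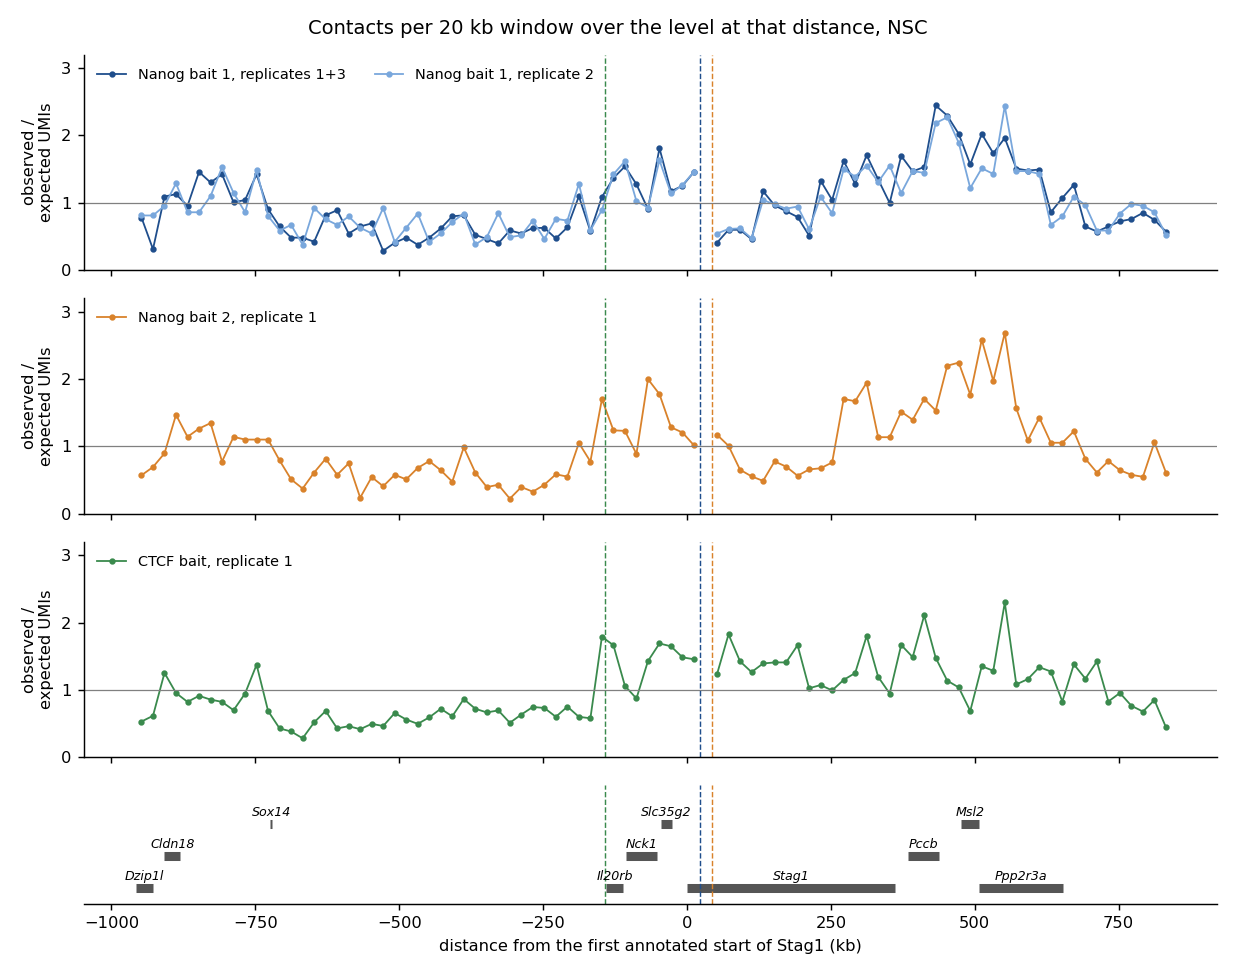
Observed over expected UMIs in 20 kb windows, against the distance of the window from the first annotated start of Stag1 in kb, for the samples of each bait. The expected level pools both sides of a bait. Dashed lines mark the baits (green CTCF bait, blue bait 1, orange bait 2), grey bars the protein-coding genes. All panels show low values between Sox14 and the CTCF bait, near 0.6 on average, a stretch on the lower side of every bait. The panels of baits 1 and 2 dip after the Stag1 start, where that of the CTCF bait does not.

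At matched distance, with the expected UMIs as offset in edgeR, bait 2 differed from bait 1 in 7 windows (7.87% of those tested), of which 3 (3.37%) were higher and 4 (4.49%) lower. The CTCF bait differed from bait 1 in 21 windows (23.6%), of which 13 (14.6%) were higher and 8 (8.99%) lower. It differed from bait 2 in 20 windows (22.5%), of which 12 (13.5%) were higher and 8 (8.99%) lower. In Stag1, 8 of 17 windows were higher from the CTCF bait than from bait 1 and none lower, and 9 were higher and 1 lower than from bait 2. The median log2 difference in the gene was 0.32 over bait 1 and 0.64 over bait 2, against −0.03 and 0.07 over all windows tested. From the end of Stag1 to the end of Ppp2r3a, 1 of 15 windows was higher and 4 lower than from bait 1, and 5 were lower than from bait 2 and none higher. These counts and splits depended on the setting. With the spread no smaller than counting error, edgeR called 4 (3 higher, 1 lower), 15 (9 higher, 6 lower) and 11 (7 higher, 4 lower). With an expectation from each side of the bait alone, chosen after seeing the data, it called 8 (3 higher, 5 lower), 15 (8 higher, 7 lower) and 11 (4 higher, 7 lower), so that the balance over bait 2 turned. With each fragment end counted once, edgeR called 0, 2 (both lower) and 0 windows in the 3 comparisons, with 5, 16 and 14 at an unadjusted p below 0.05. With each distance class divided further, it called 0, 10 (7 higher, 3 lower) and 7 (all higher), with 14 at an unadjusted p below 0.05 between baits 1 and 2.

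The higher windows in Stag1 lay in the first and middle stretches after the next start. Of these, 4 of 5 in the first and 4 of 6 in the middle stretch were called over bait 1, and 4 and 5 over bait 2. With the spread no smaller than counting error, 6 windows of Stag1 were still higher than from bait 1 and 7 than from bait 2. In chr9:100660001-100680000 the observed over expected ratio was 0.599 and 0.612 in the bait 1 samples, 1.01 from bait 2 and 1.82 from the CTCF bait. The log2 difference of the CTCF bait was 1.59 over bait 1 (SE 0.177, edgeR adjusted p = 1.19e-05) and 0.85 over bait 2 (SE 0.176, adjusted p = 0.000357). In chr9:100700001-100720000 the ratios were 0.460 and 0.473, 0.554 and 1.26, and the log2 differences were 1.45 (SE 0.215, edgeR adjusted p = 0.000119) and 1.19 (SE 0.222, adjusted p = 0.000452). In chr9:100780001-100800000 they were 0.789 and 0.945, 0.564 and 1.66, with log2 differences of 0.96 (SE 0.194, edgeR adjusted p = 0.00155) and 1.56 (SE 0.224, adjusted p = 0.000389). In each of these windows the CTCF bait was above every sample of the other baits. By plain share the CTCF bait was the lowest in chr9:100660001-100680000, at 2.88% in both bait 1 samples, 3.88% (3.38 to 4.44) from bait 2 and 1.42% (1.19 to 1.71) from the CTCF bait. In that window the log2 difference with ends counted once was 0.66 over bait 1 (edgeR adjusted p = 0.0768) and 0.44 over bait 2 (adjusted p = 0.314), and no window of Stag1 was called as higher. The excess at matched distance also depended on pooling the sides of the bait. With an expectation from each side alone, the log2 difference over bait 1 was 0.37 in chr9:100660001-100680000 (edgeR adjusted p = 0.115) and 0.28 in chr9:100700001-100720000 (adjusted p = 0.393), and none of the 8 windows of Stag1 called over bait 1, nor of the 9 over bait 2, had an adjusted p below 0.05. The direction turned as well, in 1 of the 8 windows (−0.10, chr9:100740001-100760000) and in 5 of the 9. All 9 ranged from −0.39 to 0.54 over bait 2. The excess is thus not a measurement apart from the side shares given above.

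The opposite difference, between Pccb and Msl2, was as large with the sides kept apart. In chr9:101040001-101060000 the ratio was 2.29 and 2.27 in the bait 1 samples, 2.20 from bait 2 and 1.14 from the CTCF bait. The log2 difference of the CTCF bait was −1.004 over bait 1 (SE 0.191, edgeR adjusted p = 0.000584) and −0.95 over bait 2 (SE 0.231, adjusted p = 0.00201). In chr9:101060001-101080000, which reaches into Msl2, the ratios were 2.02 and 1.89, 2.24 and 1.04, with log2 differences of −0.92 (SE 0.203, edgeR adjusted p = 0.00155) and −1.11 (SE 0.241, adjusted p = 0.00198). In chr9:101080001-101100000 they were 1.57 and 1.22, 1.77 and 0.687, and the log2 difference over bait 1 was −1.05 (SE 0.243, edgeR adjusted p = 0.00915). These calls all held with the spread no smaller than counting error. The ratio was thus lower from the CTCF bait than in every other sample in all 3 windows. With an expectation from each side alone the differences over bait 1 in these windows were −0.97, −0.89 and −1.01, all still past the threshold, and with narrower distance classes −0.78, −0.70 and −0.83, of which the last had an adjusted p of 0.0882. With each fragment end counted once, the first 2 windows gave −0.82 and −0.93 over bait 1, each with an edgeR adjusted p of 0.0286, and were the 2 windows still called. Over bait 2, the 3 windows gave −0.87, −1.05 and −1.29 with an expectation from each side alone, all past the threshold. They gave −0.70, −0.80 and −1.05 with narrower classes (edgeR adjusted p = 0.0514, 0.0514 and 0.123) and −0.68, −1.03 and −1.14 with ends counted once (adjusted p = 0.147, 0.0517 and 0.0517). By plain share the first of these windows held 1.39% and 1.44%, 1.35% (1.07 to 1.70) and 1.26% (1.04 to 1.53), so the baits were close there in absolute level and differed in what their distance led to expect. The 3 windows are centred 408.3 to 470 kb from baits 1 and 2, just past the 400 kb class edge. From the CTCF bait they are centred 594.6 to 634.6 kb away. Each setting above keeps this edge, so none fully removes the fall of contacts within a class from these differences.

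**Figure D4:**
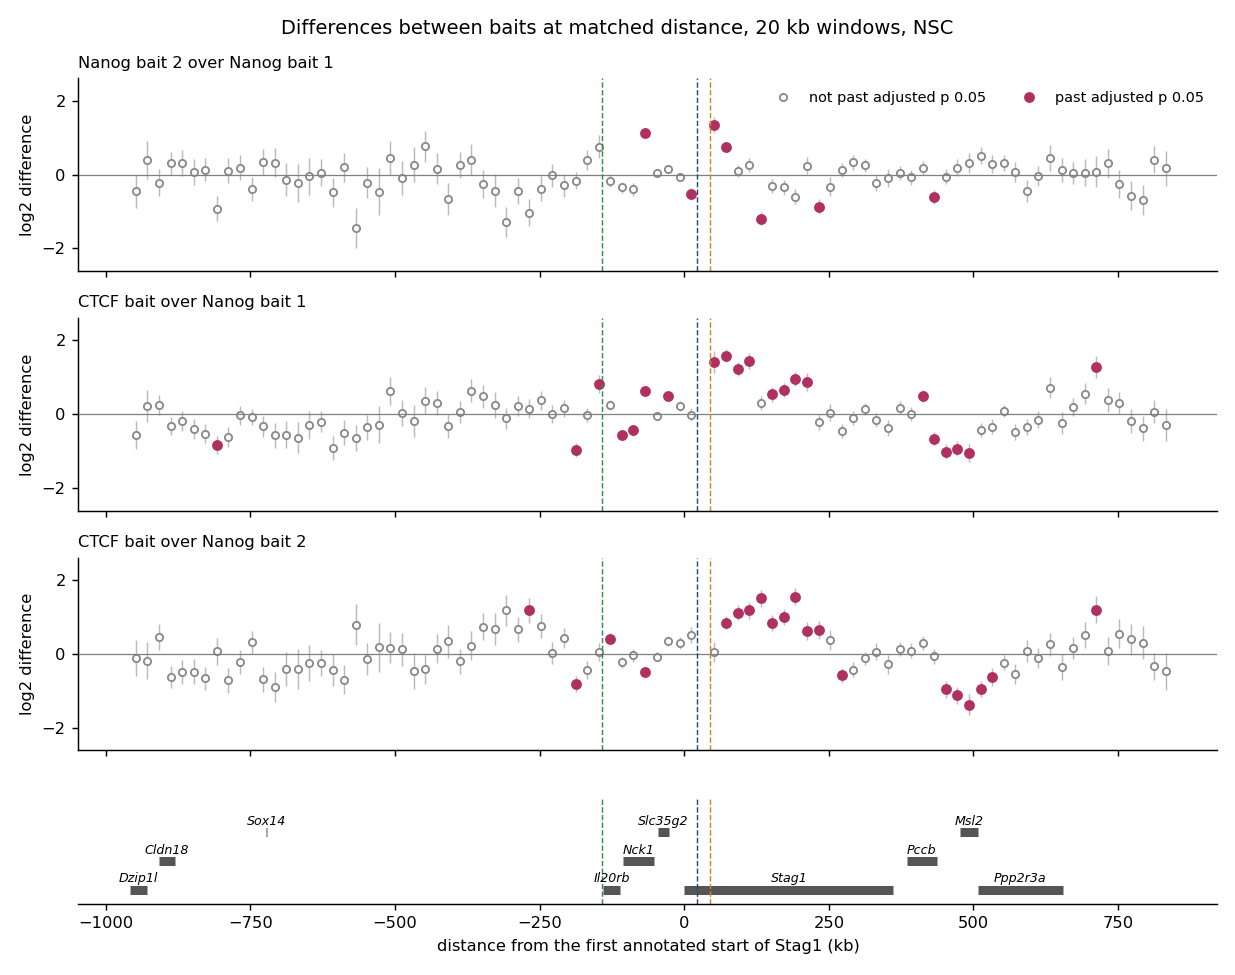
Log2 difference between baits in 20 kb windows at matched distance, against the distance of the window from the first annotated start of Stag1 in kb. Points are windows with their SE, held no smaller than counting error, filled where the edgeR adjusted p was below 0.05, and dashed lines mark the baits. The lower panels share a run of higher windows in Stag1 and a run of lower windows around Msl2.

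The windows with the highest ratio at 100 kb or more from a bait, which describe each profile and were not tested, shared a place. The window chr9:101140001-101160000, in Ppp2r3a, stood among the highest 3 from every bait, at 1.96 and 2.44 in the bait 1 samples, 2.68 from bait 2 and 2.30 from the CTCF bait, 694.6 kb away. The other windows were chr9:101020001-101040000 in Pccb (2.31 on average) and chr9:101040001-101060000 (2.28 on average) for bait 1, and chr9:101100001-101120000 (2.58) and chr9:101060001-101080000 (2.24) for bait 2. For the CTCF bait they were chr9:101000001-101020000 in Pccb (2.11) and chr9:100660001-100680000 in Stag1 (1.82). Several of the windows named for baits 1 and 2 lie just past the 400 kb edge of a distance class, where the expected level drops by a step. From bait 1 the mean share was 1.47% in chr9:101000001-101020000 and 1.43% in chr9:101020001-101040000, while the ratio went from 1.49 to 2.31. These ratios thus rest in part on the class edges. The window in Ppp2r3a also holds the GATC site shown above for the CTCF bait, 1 of 3 sites tied at 10 UMIs, of which the other two lie in other windows of Ppp2r3a. That site had 10 UMIs from the CTCF bait, 4 from bait 2, and 0 and 1 in the bait 1 samples, the last below the limit of 3 UMIs that a count of 0 allows.

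Baits 1 and 2, which lie 21.7 kb apart, gave profiles closer to each other than to that of the CTCF bait. Across the 89 windows, which are not independent and share the fall of contacts with distance, the observed over expected ratios of the bait 1 samples correlated at r = 0.890. Bait 2 correlated with them at r = 0.814 and 0.770, and the CTCF bait at 0.579 and 0.555 with the bait 1 samples and 0.614 with bait 2. By counts, chi-square per degree of freedom was 1.02 and 1.08 between bait 1 replicate 2 and replicates 1 and 3. It was 2.66 to 2.70 between the libraries of bait 1 and bait 2, and 11.1 to 14.1 between those of the CTCF bait and the other baits. These counts are compared at the same position, so the value also carries the distance between the baits, and it grows with depth. Of the GATC sites of the region contacted from bait 2 (2254 sites), 75.1% and 60.5% were contacted in the bait 1 samples. Of the sites contacted in the smaller bait 1 sample, 76.2% were contacted in the larger. Sites contacted from the CTCF bait, the deepest library of the region, included 84.2% and 86.8% of those of the bait 1 samples and 85.1% of those of bait 2. Of all 4234 GATC sites of the region, the bait 1 libraries contacted 58.4%, 47.9% and 57.9%, bait 2 56.5% and the CTCF bait 72.8%. These shares, which include the stretches left out above, are the level against which the overlaps stand, and no excess over it was tested.

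Where bait 2 differed from bait 1 at matched distance, 1 window lay in Nck1, 5 in Stag1 and 1 in Pccb. In chr9:100520001-100540000, in Nck1, the ratio was 0.906 and 0.930 in the bait 1 samples, 2.00 from bait 2 and 1.43 from the CTCF bait. The log2 difference of bait 2 over bait 1 was 1.13 (SE 0.131, edgeR adjusted p = 9.99e-06). The plain share went the same way, at 3.19% and 3.04% against 4.51% (3.98 to 5.11), though bait 1 is nearer to this window. The site shown above for bait 2 lies in this window in an intron of Nck1, and had 12 UMIs from bait 2, 11 and 6 in the bait 1 samples and 14 from the CTCF bait. In chr9:100720001-100740000, in Stag1, the ratio was 1.17 and 1.04, 0.488 and 1.39, a log2 difference of −1.19 (SE 0.180, edgeR adjusted p = 0.000277). Both calls held with the spread no smaller than counting error, but with each fragment end counted once the differences were 0.36 (edgeR adjusted p = 0.805) and −0.65 (adjusted p = 0.146). With an expectation from each side alone the differences were 1.11 and −0.55. These windows fall into different distance classes from each bait. With each class divided further, the differences were 0.70 (edgeR adjusted p = 0.0622) and −1.03 (adjusted p = 0.0624), and no window was called between baits 1 and 2.

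The baits were also looked at from each other. The count planned for this was that of the flanks 10 to 30 kb away, and the counts within 10 kb were chosen after seeing the data. Within 10 kb of the CTCF bait, a stretch left out above, bait 1 placed 2.57% and 2.88% of the region's UMIs and bait 2 4.33% (3.82 to 4.91), with the UMIs of the stretch added back to the total, although bait 2 is farther away. In the reverse direction, counted in the same way, the CTCF bait placed 2.28% (1.98 to 2.63) within 10 kb of bait 1 and 2.72% (2.39 to 3.09) within 10 kb of bait 2, whose intervals overlap. In the flanks 10 to 30 kb from the CTCF bait, bait 1 placed 3.78% and 4.03% and bait 2 4.34% (3.82 to 4.93), so that the baits in Stag1 were close there. From the CTCF bait, the flanks of bait 1 held 1.83% (1.56 to 2.15) and those of bait 2 1.55% (1.30 to 1.84). The site with the most UMIs far from bait 1, shown above, lies in an exon of Il20rb near the CTCF bait, and had 9 and 5 UMIs in the bait 1 samples, 5 from bait 2 and 31 from the CTCF bait.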

How the data were processed

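The authors deposited 1 table per library, in which each line pairs 2 fragment ends and gives a raw count of UMIs. The submitters' processing notes name Bowtie2 and mm10, and other steps are not given in the sources used here. The bait was the end with the most partners. Members, gene lists and tests were chosen with earlier results of these data known. Bait 1 replicates 1 and 3 were averaged, with averages rounded for the count model. UMIs were summed per window of 20 kb, and a window entered the tests if its summed count reached 10 and at least 5000 bp of it lay outside the stretches left out, which removed 1 of 90 windows. Expected UMIs came from distance classes with edges at 10, 50, 100, 200, 400 and 750 kb. Counts were tested with edgeR 4.0.16 (limma 3.58.1, R 4.3.3) by quasi-likelihood, with Benjamini-Hochberg adjustment over the windows of a comparison and DESeq2 1.42.0 as an alternative. SE is the log2 difference over the root of F, with the quasi-dispersion held at 1 or more so that it is no smaller than counting error. The script was tested on simulated data. Intervals were computed with scipy 1.17.1. Genes are from GENCODE vM21 and sequence is the GRCm38 RefSeq assembly. Windows were named as the 5 with the largest change per comparison and direction with both bait 1 samples on the same side, and the 3 with the highest ratio per bait among those at least 100 kb away with at least 20 UMIs. Of these, those that matter most are given with their values.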

Additional observations from a re-analysis of the deposited data

Results flagged for a closer look

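A second bait-side end appeared in each library, outside the measurement used here. Its partners numbered 765 in bait 1 replicate 1, 94 in replicate 2, 864 in replicate 3, 70 for bait 2 and 7 for the CTCF bait, each above the limit of 3 that a count of 0 allows. In each library this end lay at the GATC site next to that of the bait, 16 bp away for bait 1, 498 bp for bait 2 and 1206 bp for the CTCF bait. Of its partners, 99.5%, 98.9%, 98.5%, 98.6% and 85.7% were also partners of the bait end.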

How the results depend on the processing

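No paired analysis was possible because the baits in NSC share only replicate number 1. The values below are differences between baits in percentage points, or numbers of windows called, and the cause of each change was not tested. With each fragment end counted once, the difference within 100 kb was −1.38 (bait 2 minus bait 1) and −5.88 (CTCF bait minus bait 1). The side share differed by −3.93, −1.87 and 2.06 (bait 2 minus bait 1, CTCF bait minus bait 1, CTCF bait minus bait 2), the last reversed, and at 200 to 750 kb by 6.81 (CTCF bait minus bait 2). The chromosome 9 share differed by 11.8 (CTCF bait minus bait 2), the Stag1 share by −6.17 and −8.53, and the share from Stag1 to the end of Ppp2r3a by 0.219 and −1.11 (CTCF bait minus baits 1 and 2, against 4.39 and 2.71), the last reversed. Windows called were 0, 3 and 9 at the same position and 0, 2 and 0 at matched distance. With only the own bait left out, the CTCF bait differed within 100 kb by −14.0 and −8.59, and the side share by 3.48 (bait 2 minus bait 1, reversed) and −19.9 (CTCF bait minus bait 2). With 20 kb around each bait left out, the side share of the CTCF bait differed by −15.1 and −9.32, the Stag1 share by 3.31, −7.27 and −10.6, contacts in the flanks of the CTCF bait by −0.321 (bait 2 minus bait 1, against 0.432, both within their error), and baits 1 and 2 differed in 0 windows. Counted within 30 and 10 kb of the CTCF bait, with the stretch added back to the total, bait 2 exceeded bait 1 by 1.96 and 1.61, and within 10 kb contacts from the CTCF bait differed by 0.439, these 10 kb alternatives having been chosen after seeing the data.

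At the same position, bait 2 differed from bait 1 in 7 windows of 40 kb (5 higher, 2 lower), in 1 with the spread of all samples of the series, in 8 with each library as a replicate, in 1 with TMM factors, in 0 with DESeq2 and in 0 with all UMIs as library size. The CTCF bait differed from bait 1 in 2 and from bait 2 in 0 windows with DESeq2, and in 63 and 39 with all UMIs as library size. Leaving out each bait 1 replicate in turn gave 1 to 2, 15 to 23 and 15 to 26 windows at the same position and 5 to 10, 15 to 23 and 16 to 21 at matched distance. Without replicate 2 no NSC bait has a replicate, so its spread came from other samples of the series, and that value differs from the others in more than the replicate. With narrower distance classes 0, 10 and 7 windows were called, and with an expectation from each side, chosen after seeing the data, the CTCF bait differed from bait 2 in 11. With the spread no smaller than counting error, also chosen later, 0, 4 and 0 windows were called at the same position and 4, 15 and 11 at matched distance. Of 629 values of 49 named window differences, 482 kept direction and call, 139 lost the call and 8 reversed. The reversed log2 values were 0.15 (bait 2 over bait 1, chr9:100600001-100620000), −0.31 (CTCF bait over bait 1, chr9:100440001-100460000) and 0.32 (CTCF bait over bait 2, chr9:100640001-100660000) with only the own bait left out, and −0.31 (CTCF bait over bait 1, chr9:100460001-100480000) with ends counted once. At matched distance they were 0.16 (ends once) and 0.23 (narrower classes) for bait 2 over bait 1 in chr9:100600001-100620000, and with each side apart 0.16 (bait 2 over bait 1, chr9:100820001-100840000) and −0.091 (CTCF bait over bait 2, chr9:100700001-100720000).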
